A study of Mus musculus with 12 samples.

Results

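The genes described here encode subunits of the mitochondrial respiratory chain and of the ATP synthase. They were taken by symbol, from every probe set of the mouse array that named a single gene. Symbols began with Nduf (families a, b, c, s and v, each followed by a digit), Uqcr, Cox4 to Cox7, Cox8a or Atp5. Sdha to Sdhd and Cycs, which encodes cytochrome c, were taken as well. This gave 165 of 45037 probe sets, or 165 of the 34945 that named 1 gene, and 80 of 18193 named genes. The tissues came from Ghsr knockout mice, which lack the receptor for acylated ghrelin (Ghsr-/- females of 12 weeks, congenic with C57BL/6). Each mouse received an intraperitoneal injection of unacylated ghrelin (UAG) at 20 nmol/kg, or of saline, and tissues were taken 6 h later. RNA of liver, of M. vastus lateralis (called muscle) and of white fat from the gonadal depot (WAT) was hybridised to 2 arrays per treatment and tissue, 12 arrays in all. The knockout was shared by UAG-treated and saline-treated animals, so all values refer to mice without the receptor. The methods give 2 mice per treatment, but neither they nor the labels tie an array to a mouse, so that arrays of different tissues may share animals, and p-values measured only the spread between these samples.

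The respiratory chain passes electrons from nutrients to oxygen in the inner mitochondrial membrane and pumps protons as it does so. Complex I takes electrons from NADH and complex II, succinate dehydrogenase of the citric acid cycle, takes them from succinate. Complex III hands them to cytochrome c, complex IV (cytochrome c oxidase) reduces oxygen, and complex V is the ATP synthase that lets the protons flow back. Muscle and brown adipose tissue are rich in mitochondria, and several complex IV subunits exist as a form typical of heart and skeletal muscle and a form typical of liver and most other tissues. The array held 33 genes of complex I on 71 probe sets, 4 of complex II on 9, 8 of complex III on 16, 17 of complex IV on 34 and 17 of complex V on 31, beside 4 probe sets for Cycs. Ndufa4 and its paralogue Ndufa4l2 were counted with complex IV, where the Ndufa4 protein is found. Subunits encoded by mitochondrial DNA fell outside the symbol rule, as did other chain genes such as Ndufab1 and Cyc1.

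Values are given as array intensity, which is the deposited log2 value raised to base 2, and intensities below 30 were set to 30 before any difference was taken. Where a gene had several probe sets, the brightest over all arrays stood for it. Intensities of different probe sets depend on the probes, so each gene was compared only with itself across arrays. Nearly all members were bright: a mean intensity of 30 was passed by 78 genes for muscle, 77 for WAT and 76 for liver. The mean was below 30 in every tissue for Cox7b2 and Ndufb4, in WAT and liver for Cox4i2, and in liver for Cox6b2. Cox7c was dim in all tissues, at 70.2 to 98.5 in muscle, 57.8 to 72.2 in WAT and 87.3 to 133 in liver, and so was Ndufb1, at 158 to 205 in muscle, 54.4 to 76.1 in WAT and 101 to 131 in liver.

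Arrays of 1 tissue correlated with r of 0.925 to 0.946 for liver, 0.938 to 0.951 for muscle and 0.951 to 0.962 for WAT, with sorted values that were nearly the same on all arrays. Some libraries stood apart in marker genes. The brown adipocyte marker Ucp1 was at 1677 and 503 on WAT UAG arrays 1 and 2, against 6772 and 702 on saline arrays 1 and 2, and Cidea, another, at 865 and 452, against 5614 and 619.8. Saline array 1 was thus high in both, and also in fast muscle fibre genes such as Myh4, at 16.9 and 24.7 with UAG, against 423 and 4.25 with saline. WAT saline array 2 was high in smooth muscle genes, with summed levels of 6 markers at 6648 and 7112 with UAG, against 6162 and 34705 with saline. Adipocyte genes were also present on the muscle arrays, with Adipoq at 7674 to 11936 and Ucp1 at 1043 to 3713. Muscle saline array 1 was low in slow fibre genes (Myh7 at 76.8, against 817 and 993 on UAG arrays and 808 on the other saline array). In liver, UAG array 2 had the highest summed level of 9 hepatocyte markers, at 152698, beside 113180.0 on UAG array 1 and 109754 and 114963 on saline arrays, and the highest 3'/5' signal ratio of Actb, at 2.35. It was also the only array whose highest intensity, 25724, exceeded the 18498 reached on every other array. Markers in the sum lay in that range, such as Apoa1 at 25606. The part of this upper end in the sum was not tested. In liver, Ucp1 was at 6.19 to 7.8, and in muscle the hepatocyte gene Alb was at 79.4 to 219. The adipocyte gene Fabp4 was at 13399 to 18188 in muscle, against 16981 to 17913 in WAT, and Cyp2e1 of the hepatocyte list at 3049 to 11687 in muscle and 12825 to 16072 in WAT, against 13242 to 18685 in liver. In whole tissue, fewer cells of a type and less RNA per cell cannot be told apart.

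In WAT, UAG arrays had lower levels of most respiratory chain genes, but the difference followed 1 saline array and no member passed the test. Of 77 genes, 65 were lower and 12 higher with UAG, with a median log2 difference of -0.16, while over all 25307 probe sets tested the median was 0.012 and 48.2% were lower. limma, fitted over all probe sets with Benjamini-Hochberg adjustment, called 0 of 147 member probe sets at an adjusted p under 0.05 and 0% of all probe sets. At an unadjusted p under 0.05, 5 member probe sets were lower and 0 higher, against 2.37% of all probe sets lower, 4.43% higher and 6.81% in either direction. The 5 were probe sets of Ndufs8, Cycs, Ndufv2, Cox5a and Atp5o, the last 3 on dimmer probe sets and named after their values were seen. The ratio of means was 0.5 or less for 2 member probe sets, those of Ndufs8 and Cox7a1, and 2 or more for 0, against 1.53% of all probe sets lower and 0.443% higher.

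WAT saline array 1 was the highest of the 4 WAT arrays for 73 of 80 genes. Averaged over the genes, as log2 deviation from each gene's WAT mean, it lay at 0.33, beside -0.17 for saline array 2, -0.057 for UAG array 1 and -0.11 for UAG array 2. Both UAG arrays therefore lay between the saline arrays. Without saline array 1, 54 genes were higher and 23 lower with UAG, and the median log2 difference was 0.073. Without saline array 2 it was -0.36, with 4 genes higher and 73 lower. The summed level of 7 brown adipocyte markers was also highest on saline array 1, with 6 of 6 tested lower in mean after UAG. It was 4209 and 1981 on the UAG arrays, against 19790.4 and 2957 on saline arrays 1 and 2. Its lowest array was UAG array 2, whereas the members were lowest on saline array 2. The list includes Cox8b, itself a form of a complex IV subunit, at 1091 and 789 with UAG, against 5296 and 1187 with saline. Zic1, of the same list, was at 1.45 to 8.67 in WAT and thus below the floor. The summed fast fibre markers were 1241 and 1619 with UAG, against 4342 and 884 with saline. White adipocyte markers did not set saline array 1 apart, with summed levels of 48146 and 52414 with UAG, against 48127 and 43692 with saline. The part of these cell types in the result was not tested.

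**Figure D1:**
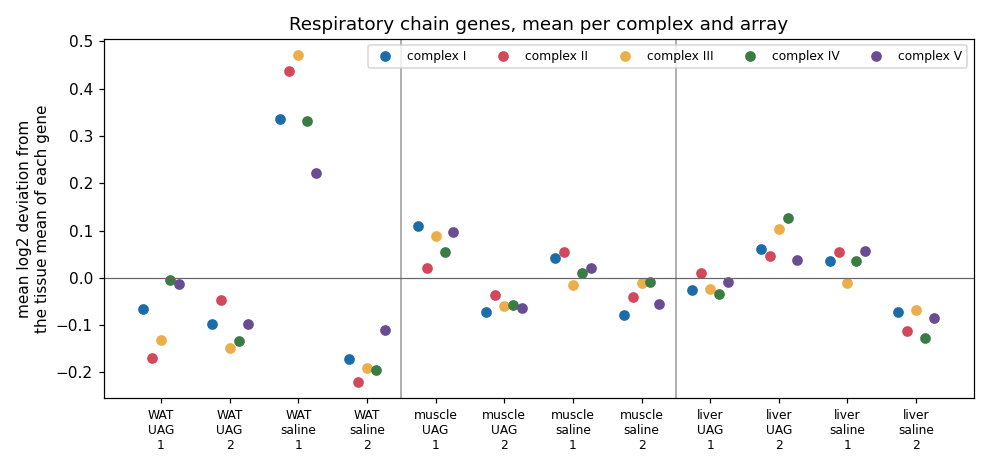
Mean log2 deviation of the member genes from their own mean within the tissue (y axis) on each of the 12 arrays (x axis), 1 point per complex, UAG arrays left of saline arrays in each tissue. WAT saline array 1 stands above the other WAT arrays for every complex, at 0.33 over all 80 genes, while complexes I to V stay within 0.13 of 0 on muscle and liver arrays.

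Complexes I to V were all lower in median in WAT after UAG, and each of these medians turned positive without saline array 1. For complex I the median log2 difference was -0.16, with 27 of 32 genes lower, and 0.056 without that array. Ndufs8, an iron-sulphur subunit, was at 2025 and 1898 with UAG, against 5048 and 2940.1 with saline. Its arrays did not overlap, and the log2 difference was -0.97 ± 0.27 (SE; limma adjusted p = 0.644), or -0.58 without saline array 1. The other Ndufs8 probe sets did not separate the groups in this way: the next brightest 2 gave 1918 and 1949 with UAG, against 3182 and 1829 with saline, and 1774 and 1789 with UAG, against 2719 and 1619. Another Ndufs8 probe set was higher with UAG without overlap (log2 difference 0.29 ± 0.19, limma adjusted p = 0.815). All others of the gene were lower, at -0.24 to -0.32, with overlap. Ndufa2 showed the largest difference upward in complex I, at 2774 and 2450.2 with UAG, against 2258 and 2295 with saline, and did not pass the test (log2 difference 0.20 ± 0.15, adjusted p = 0.835).

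In complexes II and III the pattern of 1 high saline array was plainest. Sdhd, a membrane anchor of succinate dehydrogenase, was at 1371 and 1561 with UAG, against 2516 and 1373 with saline. Sdhb, its iron-sulphur subunit, was at 2936 and 3150.4 with UAG, against 5219.8 and 2775 with saline. Only the first saline array was high for both genes, and the median log2 difference over the 4 complex II genes was -0.27, or 0.11 without it. All 8 complex III genes were lower with UAG, with a median of -0.29, or 0.045 without saline array 1, and the smallest difference was that of Uqcr11 (-0.067 ± 0.23). Uqcrc1, a core subunit, was at 1863 and 2039 with UAG, against 3576 and 1865 with saline, so that UAG array 1 and saline array 2 were nearly equal. Its log2 difference was -0.41 ± 0.31 and did not pass the test. For Sdhc, the other membrane anchor, the log2 difference was 0.020 ± 0.17.

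Cycs was at 5277 and 5316 with UAG in WAT, against 9862 and 6665 with saline. The groups did not overlap on this probe set (log2 difference -0.61 ± 0.24, adjusted p = 0.730; -0.33 without saline array 1). Another Cycs probe set gave 3264 and 3225 with UAG, against 6134 and 3162 with saline, and there the groups overlapped. In complex IV, Cox7a1, the subunit form of heart and skeletal muscle that is also high in brown fat, was at 198 and 94.7 with UAG, against 1083 and 98.3 with saline. Its log2 difference was -1.25 ± 1.08 (adjusted p = 0.849), and it turned to 0.48 without saline array 1. Cox6b2, a dim form known from testis, gave 85.7 and 82.1 with UAG, against 66.5 and 67.8 with saline (log2 difference 0.32 ± 0.20, adjusted p = 0.809). The complex IV median was -0.13, or 0.12 without saline array 1.

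Complex V differed least, with a median log2 difference of -0.10 and 15 of 17 genes lower, or 0.062 without saline array 1. Atp5pb, the b subunit of the stalk, was at 5171 and 4679 with UAG, against 6656 and 5368 with saline, and its groups did not overlap (log2 difference -0.28 ± 0.19, adjusted p = 0.815, or -0.13 without saline array 1). Atp5j, coupling factor 6, was at 3502 and 3495 with UAG, against 3469 and 3227 with saline, a log2 difference of 0.065 ± 0.15. Over all complexes, the arrays of the groups did not overlap for 15 of the 77 genes, 4 higher and 11 lower with UAG. By probe set, 6 of 147 members were higher and 29 lower without overlap, where 22% of all probe sets were higher and 15.3% lower.

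**Figure D2:**
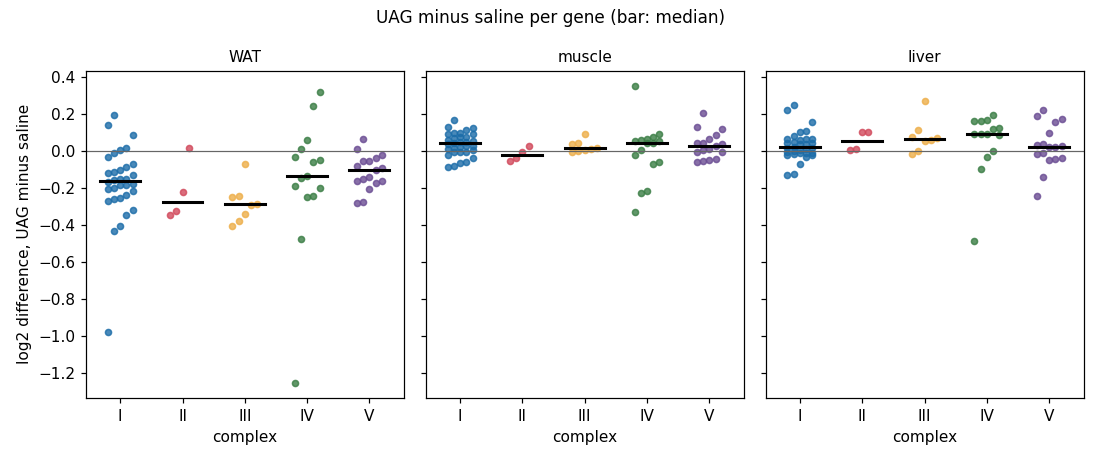
Log2 difference of UAG minus saline for each member gene (y axis) by complex (x axis), with 1 panel each for WAT, muscle and liver, each point 1 gene by its brightest probe set and each bar the median of the complex. WAT medians lie between -0.29 and -0.10, with Cox7a1 at -1.25 and Ndufs8 at -0.97 lowest, and muscle and liver medians lie between -0.019 and 0.093.

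**Figure D3:**
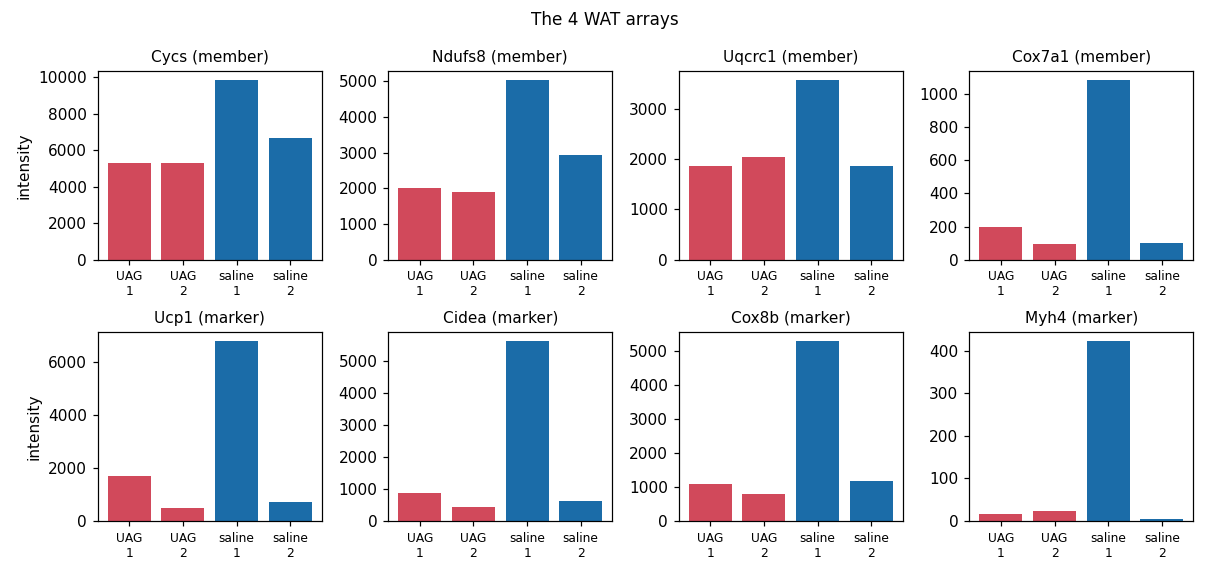
Intensity (y axis, from 0) on the 4 WAT arrays (x axis, UAG left of saline) of 4 member genes and, below, of the brown adipocyte markers Ucp1, Cidea and Cox8b and the fast fibre gene Myh4. Saline array 1 is the highest bar in all 8 panels. For Cycs, Ndufs8 and Cox8b saline array 2 also exceeds both UAG arrays.

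In muscle, respiratory chain levels with UAG and with saline lay close together. Of 78 genes, 53 were higher and 25 lower with UAG, with a median log2 difference of 0.028, beside a median of -0.0020 over all 25105 probe sets, of which 50.4% were lower. limma called 0 of 153 member probe sets and 0% of all, and at an unadjusted p under 0.05 it gave 0 members, against 1.07% of all probe sets higher and 0.797% lower. The 2-fold rule gave 0 members, against 0.239% of all probe sets higher and 0.291% lower. The direction counts depended on single arrays: 13 genes were higher without UAG array 1 and 68 without UAG array 2. Cox6a1, the form of most tissues other than striated muscle, was at 4907 and 5271 with UAG, against 5884 and 6913 with saline, with no overlap (log2 difference -0.33 ± 0.16, adjusted p = 1.00 to 3 digits). Ndufa4l2, a paralogue known to be induced by hypoxia, was at 206 and 127 with UAG, against 113 and 142 with saline, and only UAG array 1 was high (log2 difference 0.36 ± 0.30). Cycs was nearly level on all 4 muscle arrays, at 12435 and 12591 with UAG, against 12181 and 12482 with saline.

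Among the other genes that differed most within their complex in muscle, Ndufs8 was at 5722 and 4458 with UAG, against 4958 and 4052 with saline, and Ndufv1, the NADH-binding subunit, at 3461 and 2782, against 3336 and 3254. In complex V, Atp5md was at 6041 and 3635 with UAG, against 4664 and 3542, and Atp5l, the g subunit, at 5603 and 5109, against 5892 and 5266. The groups overlapped for all of these. Sdha, the flavoprotein of complex II, gave 5206 and 5139 with UAG, against 5242 and 5498 with saline, which did not overlap but differed by -0.054 ± 0.15 on the log2 scale. In complex III the extremes were Uqcrq, with a log2 difference of 0.093 ± 0.17, and Uqcr10, with -0.0033 ± 0.16. Groups did not overlap for 5 genes, 3 higher and 2 lower with UAG. By probe set, 11 of 153 members were higher and 9 lower without overlap, against 11.4% and 11.3% of all probe sets. Slow fibre markers, at a summed level of 21472 and 22119.8 with UAG, against 10946 and 22302 with saline, were low on saline array 1, on which the members averaged 0.025 above their muscle mean.

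In liver, slightly more members were higher with UAG, again within the spread of the arrays. Of 76 genes, 54 were higher and 22 lower, with a median log2 difference of 0.039, beside 0.0011 over all 25160 probe sets, of which 49.8% were lower. limma called 0 of 150 member probe sets, against 0.00397% of all. At an unadjusted p under 0.05 there was 1 member higher, a dimmer probe set of Ndufa7 named after its value was seen, against 1.94% of all probe sets higher, 1.72% lower and 3.65% in either direction. The 2-fold rule gave 0 members, against 0.425% higher and 0.346% lower. Saline array 2 was the lowest of the 4 liver arrays for 52 of 80 genes, and without it 38 genes were higher and 38 lower. UAG array 2, the array that also stood out in hepatocyte markers and in its highest intensity, was the highest for 44, and without it 41 genes were higher and 35 lower.

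Cycs in liver was at 5746 and 8068 with UAG, against 5739 and 5900.4 with saline, so that 1 UAG array was high. Uqcrb, a complex III subunit that binds ubiquinone, was at 12506 and 17498, against 12478 and 12062, with the same array high (log2 difference 0.27 ± 0.22). Cox7a2, the complex IV form typical of liver, was at 7371 and 10035, against 7987 and 7046, and Atp5g3, which encodes the ring-forming c subunit, at 7863 and 9684, against 7959 and 7651. In these genes UAG array 1 lay among or near the saline arrays. They are bright genes, and UAG array 2 is the array whose highest intensity, 25724, exceeded that of all others. The part of that upper end in these values was not tested. Ndufb9 of complex I gave 4729.8 and 5029 with UAG, against 4473 and 3744, without overlap (log2 difference 0.25 ± 0.14). In complex V, Atp5md gave 2586 and 2681, against 2468 and 2056, and Atp5g2 was lower at 1771 and 1785, against 2237 and 1973, both without overlap (log2 differences 0.23 ± 0.13 and -0.24 ± 0.12). Ndufa13 was at 2733 and 3142 with UAG, against 3372 and 3045 with saline, and Sdhb at 4039 and 4777, against 4580.0 and 3643. Ndufa4l2 was at 52.7 and 62.3, against 113 and 57.2, with 1 high saline array, and Uqcrc1 had the lowest log2 difference of complex III at -0.016 ± 0.12. Groups did not overlap for 18 genes, 16 higher and 2 lower. By probe set, 34 of 150 members were higher and 3 lower without overlap, where 15.3% of all probe sets were higher and 15.2% lower.

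Whether the UAG effect differed between tissues was tested in a single fit over 12 arrays. Of 151 member probe sets, 0 were called for WAT against liver, 0 for muscle against WAT and 0 for muscle against liver, where 0%, 0.00377% and 0% of all 26530 probe sets were called higher and 0% lower in each. At an unadjusted p under 0.05 there were 8, 8 and 0 member probe sets, against 4.86%, 3.57% and 2.81% of all. Cycs had a log2 difference of the UAG effect of -0.84 for WAT minus liver and 0.64 for muscle minus WAT, and neither passed the adjusted test. The median over member genes was -0.20 for WAT minus liver and 0.19 for muscle minus WAT, both of which include WAT saline array 1.

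Between tissues the differences were far larger than those between treatments. In muscle against liver, over UAG and saline arrays with equal weight, 122 of 151 member probe sets were called higher in muscle and 4 lower (limma, adjusted p under 0.05), where 32.2% of all probe sets were higher and 29.3% lower. By gene, 68 of 78 were called higher and 1 lower, with a median log2 difference of 0.92, beside 0.028 over all probe sets. Complex I was higher throughout: all 32 genes measured were called, by a median of 1.04, and no muscle array overlapped a liver array for any of them. Over all complexes, 120 member probe sets lay higher in muscle without overlap and 3 lower, where 30.1% of all probe sets were higher and 26.6% lower without overlap. Ndufc1, an accessory subunit, showed the largest difference in that complex, with 7445 and 6667 with UAG and 6986 and 6523 with saline in muscle, against 1603 to 1789 over the liver arrays (log2 difference 2.02 ± 0.13, adjusted p = 1.41e-07). Ndufb8, a subunit often used as a marker of assembled complex I, was at 4566 to 5630.1 in muscle, against 1494 to 1667 in liver (1.62 ± 0.16). The smallest was that of Ndufa7, at 3604 to 4183 in muscle, against 2674 to 3245 in liver (0.45 ± 0.10, adjusted p = 0.00263).

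Complex II differed less between muscle and liver, with a median log2 difference of 0.30 and 2 of 4 genes called higher. Sdhb was at 7430.3 to 8411 in muscle, against 3643 to 4777 in liver (0.90 ± 0.18, adjusted p = 0.00113), and Sdha at 5139 to 5498, against 3831 to 4173 (0.40 ± 0.13, adjusted p = 0.0163). The membrane anchors overlapped between these tissues: Sdhc was at 2611 to 3025 in muscle, against 2339.9 to 2629 in liver, and Sdhd at 2611 to 3043, against 2484 to 3012. Neither passed the test, with log2 differences of 0.20 ± 0.10 and 0.043 ± 0.17. On saline arrays alone the calls of Sdha (0.48, adjusted p = 0.152) and Sdhb (0.96, adjusted p = 0.0553) were lost. Complex III had a median of 0.95 with 7 of 8 genes called. Uqcr10, a small subunit, was at 3889 to 4239.9 in muscle, against 1728 to 1992 in liver (1.13 ± 0.13), Uqcrc1 differed by 1.10 ± 0.17, and Uqcrb, which did not pass, by 0.30 ± 0.14. Uqcrb was at 16263 to 17364 in muscle, against 12062 to 17498 in liver, near the highest value of 18498 found on all arrays but liver UAG array 2.

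Cycs was at 12181 to 12591 in muscle, against 5739 to 8068 in liver (0.98 ± 0.15, adjusted p = 0.000164). Complex V had a median of 0.86 and 15 of 17 genes called higher. Atp5o, the subunit that confers oligomycin sensitivity, was at 5718 to 7028 in muscle, against 1726 to 1845 in liver (1.86 ± 0.12), the largest of that complex. Complex IV was mixed, with a median of 0.61, 11 of 16 genes called higher and 1 lower. Cox4i1, the common form of subunit 4, was at 7838 to 9137 in muscle, against 4040.0 to 4626 in liver (0.97 ± 0.11), whereas its hypoxia-related form Cox4i2 was dim, at 40.6 to 54.6 in muscle, against 6.14 to 43.5 in liver. Cox4i2 passed the filter in muscle alone, so no fold is given and its place among the 11 called higher is not read as a difference. Cox6b1 (0.75 ± 0.13) and Ndufa4 (0.59 ± 0.12) were called higher in muscle, as were Cox7a2l (0.44 ± 0.10), a relative of the subunit 7a genes, and Ndufa4l2 (1.08 ± 0.24). On saline arrays alone the calls of Ndufa4 (0.65, adjusted p = 0.0584) and Ndufa4l2 (0.65, adjusted p = 0.200) were lost. Cox8a (0.11 ± 0.14) and the dim Cox6b2 (0.085 ± 0.22) did not pass. The Cox6b2 mean in liver was below 30, so its estimate rests partly on the floor.

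**Figure D4:**
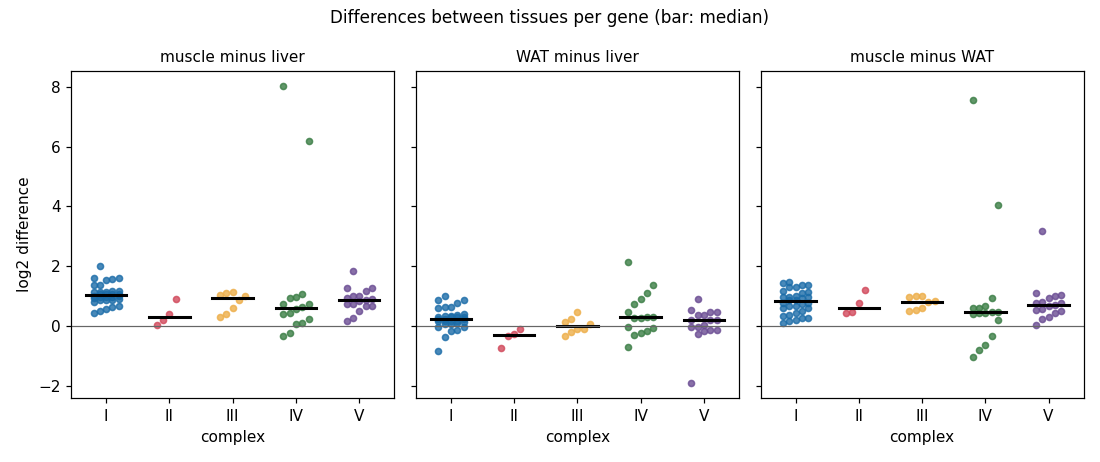
Log2 differences between tissues for each member gene (y axis) by complex (x axis), muscle minus liver, WAT minus liver and muscle minus WAT, each point 1 gene and each bar the median. Complex I lies above 0 for all genes in both comparisons of muscle, with medians of 1.04 and 0.83. Cox6a2 at 8.03 and 7.56 and Cox7a1 at 6.19 and 4.04 stand far above, and Atp5g1 is the lowest point of WAT minus liver at -1.89.

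Muscle and liver forms of the complex IV subunits had different tissue patterns. Cox6a2, the form of striated muscle, was at 9832 and 10078 with UAG and 10041 and 8837 with saline in muscle, against 30.4 to 42.1 in liver and 34.2 to 91.6 in WAT. Liver values were close to the floor of 30, so the fitted log2 differences of 8.03 against liver (adjusted p = 3.03e-10) and 7.56 against WAT are not exact folds. Its counterpart Cox6a1 was lower in muscle, at 4907 to 6913, against 8087 to 9559 in WAT and 6524 to 8371 in liver. The log2 difference was -0.61 ± 0.12 against WAT (adjusted p = 0.00129) and -0.33 ± 0.12 against liver (adjusted p = 0.0317). The call against liver was lost after quantile normalization (-0.24, adjusted p = 0.0756) and on the saline arrays alone (-0.078, adjusted p = 0.796). It was also lost, at adjusted p between 0.0501 and 0.108, without any 1 of both liver saline arrays, liver UAG array 2, muscle saline array 1, both muscle UAG arrays and both WAT UAG arrays.

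Cox7a1 was at 3128 to 3783 in muscle, against 35.1 to 64.4 in liver, a log2 difference of 6.19 ± 0.58 (adjusted p = 3.52e-06). Its counterpart Cox7a2 was at 9111 to 10015 in muscle, against 7046 to 10035 in liver, which overlapped and did not pass (0.24 ± 0.13, adjusted p = 0.134). Against WAT, Cox7a1 was higher in muscle by 4.04 ± 0.58, and WAT itself spread from 94.7 on UAG array 2 up to 1083 on saline array 1. Cox8a was lower in muscle than in WAT, at 1974 to 2714 in muscle, against 3028 to 4379.7 in WAT (-0.80 ± 0.14, adjusted p = 0.00073). Cox8b, the muscle form of subunit 8, lies outside the symbol rule. It was at 8051 to 10589.8 in muscle, against 789 to 5296 in WAT and 8.08 to 32.3 in liver.

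The genes for subunit c of the ATP synthase, Atp5g1, Atp5g2 and Atp5g3, encode the same mature protein behind different import sequences, and their tissue levels differed. Atp5g1 was at 6839 and 5346 with UAG and 6172 and 5015 with saline in muscle, 623 and 588 with UAG and 611 and 759.9 with saline in WAT, and 2142 and 2417 with UAG and 2863 and 2183 with saline in liver. No tissue overlapped another, in the order muscle, liver, WAT. The log2 difference was 3.18 ± 0.13 for muscle against WAT (adjusted p = 2.15e-08), 1.28 ± 0.13 for muscle against liver (adjusted p = 8.79e-06) and -1.89 ± 0.13 for WAT against liver (adjusted p = 4.27e-07). Atp5g2 was higher in muscle, at 3060.0 to 3569, against 1684 to 2209 in WAT and 1771 to 2237 in liver (0.77 ± 0.094 and 0.74 ± 0.094), while WAT and liver overlapped. Atp5g3 was at 8962 to 9525 in muscle, against 7108 to 7895 in WAT and 7651 to 9684 in liver, and passed against WAT (0.31 ± 0.11, adjusted p = 0.0339) but not against liver (0.16 ± 0.11). The call against WAT was lost after quantile normalization (adjusted p = 0.0634) and, at adjusted p between 0.0575 and 0.111, without any 1 of muscle saline array 2, both muscle UAG arrays and both WAT UAG arrays.

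**Figure D5:**
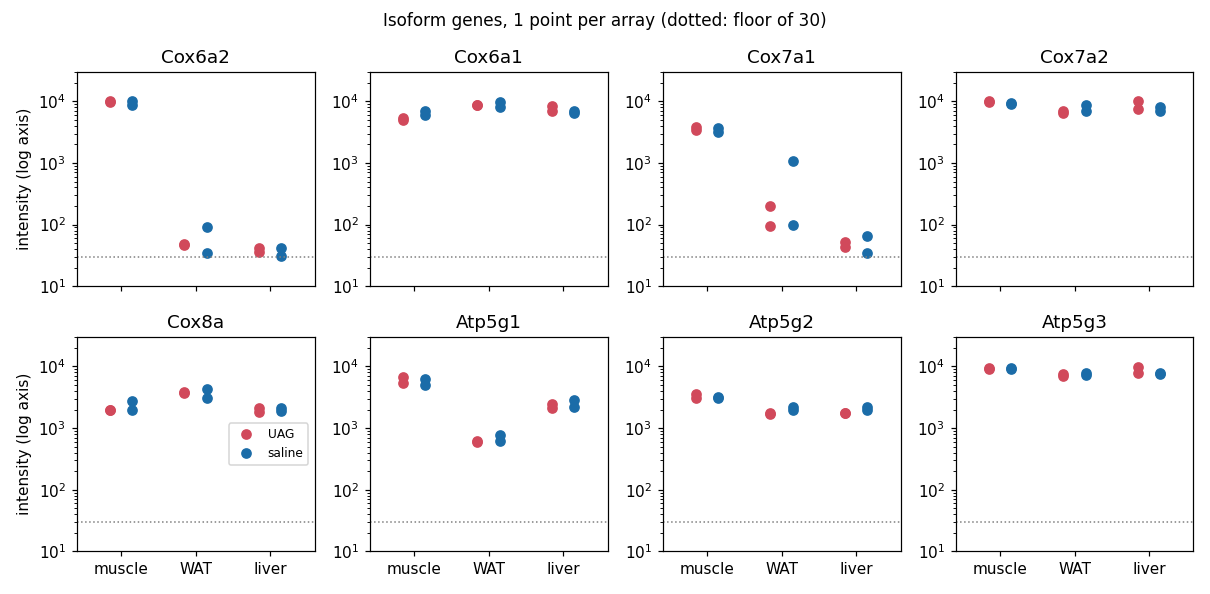
Intensity (y axis, log scale) of 8 isoform genes in muscle, WAT and liver (x axis), 1 point per array, UAG left of saline. Cox6a2 is bright in muscle alone, Cox7a1 in muscle and on WAT saline array 1 at 1083, Cox6a1 and Cox8a are lower in muscle than in WAT, and Atp5g1 is lowest in WAT.

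Start-site sequences are given for the isoform genes Cox6a1, Cox7a1 and Cox7a2 and the subunit c genes, so that forms of 1 subunit with different tissue levels can be read side by side. Cox6a2 is named only. Each is 300 bases 5' to 3' along the gene, with 250 before and 50 after the start in RefSeq, build GRCm38.p6. Capitals mark matches, on either strand, to letters bound by factors known for respiratory genes: the NRF1 motif, given by name alone, CCGGAAG for ETS factors such as GABP, TCAAGGTCA for oestrogen-related receptors and AAGATGGCG for YY1. The last bases of the ETS letters are the first of the YY1 letters, so these may overlap. Cox6a1 is at chr5:115348909-115349208 on the minus strand, Cox7a1 at chr7:30183921-30184220 on the plus strand, Cox7a2 at chr9:79759804-79760103 on the minus strand, Atp5g1 at chr11:96075582-96075881 on the minus strand, Atp5g2 at chr15:102670998-102671297 on the minus strand and Atp5g3 at chr2:73911277-73911576 on the minus strand.
Cox6a1: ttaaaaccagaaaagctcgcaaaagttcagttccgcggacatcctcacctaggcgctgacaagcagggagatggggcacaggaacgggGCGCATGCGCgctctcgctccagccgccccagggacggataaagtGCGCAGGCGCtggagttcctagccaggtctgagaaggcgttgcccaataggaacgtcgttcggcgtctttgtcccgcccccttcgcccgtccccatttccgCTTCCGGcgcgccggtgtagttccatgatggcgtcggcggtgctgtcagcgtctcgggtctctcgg
Cox7a1: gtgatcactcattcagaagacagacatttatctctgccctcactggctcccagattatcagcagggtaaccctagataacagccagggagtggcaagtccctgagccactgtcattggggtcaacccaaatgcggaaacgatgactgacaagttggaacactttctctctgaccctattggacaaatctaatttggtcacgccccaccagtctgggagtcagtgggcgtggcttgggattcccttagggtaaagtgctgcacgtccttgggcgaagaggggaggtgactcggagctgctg
Cox7a2: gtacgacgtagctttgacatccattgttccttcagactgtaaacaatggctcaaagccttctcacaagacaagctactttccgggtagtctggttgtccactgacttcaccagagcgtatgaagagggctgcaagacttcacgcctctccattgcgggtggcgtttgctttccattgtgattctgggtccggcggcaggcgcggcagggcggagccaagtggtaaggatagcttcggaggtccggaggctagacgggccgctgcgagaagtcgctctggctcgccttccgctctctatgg
Atp5g1: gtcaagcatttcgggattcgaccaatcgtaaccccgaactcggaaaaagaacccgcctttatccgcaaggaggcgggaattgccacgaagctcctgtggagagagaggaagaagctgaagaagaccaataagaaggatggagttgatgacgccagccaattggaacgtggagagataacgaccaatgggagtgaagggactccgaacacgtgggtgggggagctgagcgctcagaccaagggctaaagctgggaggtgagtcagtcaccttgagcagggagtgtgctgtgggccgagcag
Atp5g2: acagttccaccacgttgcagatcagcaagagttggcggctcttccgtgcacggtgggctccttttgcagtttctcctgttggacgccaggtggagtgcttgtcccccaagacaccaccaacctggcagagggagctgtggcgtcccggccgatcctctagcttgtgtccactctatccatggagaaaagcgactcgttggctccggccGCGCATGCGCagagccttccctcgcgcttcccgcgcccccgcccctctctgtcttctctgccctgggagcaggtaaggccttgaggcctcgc
Atp5g3: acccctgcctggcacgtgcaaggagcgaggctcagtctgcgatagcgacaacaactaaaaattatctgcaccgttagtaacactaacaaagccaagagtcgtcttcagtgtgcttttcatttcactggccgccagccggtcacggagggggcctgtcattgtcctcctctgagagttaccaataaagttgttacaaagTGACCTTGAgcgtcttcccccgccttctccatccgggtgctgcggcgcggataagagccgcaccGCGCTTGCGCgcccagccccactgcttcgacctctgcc
Cox6a1 held 2 NRF1 matches and 1 ETS match, Atp5g2 held 1 NRF1 match, and Atp5g3 held 1 NRF1 match and 1 receptor match. Cox7a1, Cox7a2 and Atp5g1 held none of the 4 motifs in these windows.

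Start-site windows were available for 66 of the 80 member genes. An NRF1 match was present in 14 of the 66 (21.2%), against 4.78% of 27025 genes of the same table, and an ETS match in 16 (24.2%), against 9.12%. YY1 letters were found in 5 members (7.58%), against 1.49%, and receptor letters in 2 (3.03%), against 0.407%. NRF1 matches were found in 5 of 15 windows of complex V, 5 of 30 of complex I, 2 of 3 of complex II, 1 of 5 of complex III and 1 of 12 of complex IV. Median GC content was 58.8% in member windows and 52.7% in all windows, and its part in these shares was not tested. A match describes letters only and shows no binding.

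Muscle against WAT gave a similar number of calls, although this comparison shares the muscle arrays with the one above. In muscle, 119 of 151 member probe sets were called higher than in WAT and 6 lower, where 22.1% of all probe sets were higher and 27.8% lower, and the median log2 difference over 78 genes was 0.70. Without overlap, 118 were higher and 6 lower, against 20.6% and 25.7% of all. All 8 genes of complex III and all 4 of complex II were called higher, 27 of 32 of complex I, 15 of 17 of complex V, and 11 of 16 of complex IV with 3 lower. Those 11 include Cox4i2, whose mean in WAT was below 30, so its call is not read as a difference. Ndufb1 (1.48 ± 0.17) and Ndufs4 (1.43 ± 0.21), accessory subunits, differed most in complex I. Ndufa1 (0.12 ± 0.10, adjusted p = 0.333) did not pass. For complex II the log2 differences were 1.22 for Sdhb, 0.78 for Sdhd, 0.48 for Sdha and 0.45 for Sdhc. Uqcrc1 (1.02 ± 0.17) and Uqcr10 (1.00 ± 0.13) were highest and Uqcrq (0.51 ± 0.15) lowest in complex III. The Uqcrq call was lost without muscle UAG array 1 (adjusted p = 0.0714) or WAT UAG array 2 (adjusted p = 0.0667). On saline arrays alone it was lost too (0.34, adjusted p = 0.413), as were those of Uqcr10 (0.83, adjusted p = 0.0580), Uqcrc1 (0.80, adjusted p = 0.115) and all 4 complex II genes (adjusted p between 0.0627 and 0.282).

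Cycs was at 12181 to 12591 in muscle, against 5277 to 9862 in WAT (0.92 ± 0.15, adjusted p = 0.000425). Besides Cox6a2 and Cox7a1, Cox6b1 (0.48), Ndufa4 (0.66), Cox7a2l (0.46) and Cox7a2 (0.40) were called higher in muscle. The Cox7a2 call was lost, at adjusted p between 0.0553 and 0.0841, without any 1 of both muscle UAG arrays, WAT saline array 2 and both WAT UAG arrays. Cox4i1 (0.21 ± 0.11) was not called, with 7838 to 9137 in muscle, against 6829.7 to 8481 in WAT, which overlapped. The dim Cox6b2 was lower in muscle, at 24.3 to 46.8, against 66.5 to 85.7 in WAT. Some muscle values lay below the floor, so no exact fold is given, and the call was lost on saline arrays alone (adjusted p = 0.0669). Ndufa4l2 did not pass (-0.32 ± 0.24). In complex V, Atp5g1 was followed by Atp5md (1.10 ± 0.20), and Atp5d, the delta subunit, did not pass (0.056 ± 0.14). On the saline arrays alone, which include WAT saline array 1, 41 member probe sets were called higher in muscle and 0 lower, and Cycs was among those no longer called (0.60, adjusted p = 0.134), as were Cox6a1, Cox6b1, Cox7a1, Cox7a2, Cox7a2l, Cox8a, Ndufa4, Atp5g2 and Atp5g3 (adjusted p between 0.0524 and 0.442). Summed brown adipocyte markers were 15821 to 23094 in muscle, against 1981 to 19790.4 in WAT, but Cox8b and Fabp3 of that list are also muscle genes.

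WAT and liver were nearer to each other. In WAT, 44 of 151 member probe sets were called higher than in liver and 14 lower, where 31.3% of all probe sets were higher and 27.9% lower. Without overlap, 44 were higher and 9 lower, against 29.6% and 25.4% of all. By gene 24 of 78 were higher and 5 lower, with a median log2 difference of 0.20, which was 0.088 without WAT saline array 1 and 0.31 without WAT saline array 2. The 5 lower in WAT were Atp5g1, Ndufb1 (-0.82), Sdhd (-0.73), Cox7c (-0.68) and Cox5a (-0.31), of which Cox7c and Ndufb1 were dim. Cox5a and Cox7c were named here after their values were seen. All 4 complex II genes had a lower mean in WAT, by a median of -0.28 (-0.43 without WAT saline array 1 and -0.14 without WAT saline array 2), with Sdhd at 1371 to 2516 in WAT, against 2484 to 3012 in liver (adjusted p = 0.00323). Sdhb (-0.32 ± 0.18), Sdhc (-0.25 ± 0.10) and Sdha (-0.074 ± 0.13) did not pass. On saline arrays alone Sdhd was not called (-0.56, adjusted p = 0.198), and on UAG arrays alone Cox7c was not (-0.51, adjusted p = 0.0828).

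Among genes higher in WAT than in liver, Ndufb8 (1.01 ± 0.16) and Ndufb3 (0.87 ± 0.11) led complex I, which had 11 of 32 genes called and a median of 0.24, or 0.15 without WAT saline array 1 and 0.38 without WAT saline array 2. Cox8a was at 3028 to 4379.7 in WAT, against 1841 to 2127 in liver (0.91 ± 0.14, adjusted p = 0.000209), and Cox4i1 at 6829.7 to 8481, against 4040.0 to 4626 (0.76 ± 0.11). The hypoxia-related Ndufa4l2 was at 153 to 209 in WAT, against 52.7 to 113 in liver (1.39 ± 0.24, adjusted p = 0.000489). Cox7a1 was also called higher in WAT (2.15 ± 0.58), at 198 and 94.7 with UAG and 1083 and 98.3 with saline, against 35.1 to 64.4 in liver. The difference was 1.28 without WAT saline array 1 and 3.02 without WAT saline array 2, and it was not called on saline arrays alone (2.78, adjusted p = 0.0770). Cox6b2 was called higher in WAT, at 66.5 to 85.7, against 13.1 to 53.3 in liver, where most values lay below the floor and give no exact fold. Its mean in liver was below 30, so its call is not read as a difference. Atp5o (0.91 ± 0.12) and Atp5k (0.55 ± 0.13) led complex V by their brightest probe sets, but Atp5o also had a dimmer probe set called lower in WAT. In complex III only Uqcr11 was called (0.47 ± 0.14), Uqcrh differed by 0.23 ± 0.13 and Uqcrb by -0.31 ± 0.14, and the median was -0.0043, or -0.22 without WAT saline array 1 and 0.20 without WAT saline array 2. On saline arrays alone Uqcr11 (0.54, adjusted p = 0.114) and Atp5k (0.57, adjusted p = 0.106) were not called. Values near 0 were those of Cycs (0.058 ± 0.15), Atp5g2 (-0.027 ± 0.094), Cox7a2l (-0.024 ± 0.10) and Ndufa4 (-0.073 ± 0.12). These counts depended on single arrays: without WAT saline array 1, 31 member probe sets were called lower in WAT, without WAT saline array 2, 79 were called higher, and without liver UAG array 2, 9 were called lower.

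Genes of related mitochondrial functions were examined beside the subunits. In WAT, 0 of 12 citric acid cycle genes were higher with UAG (median log2 difference -0.29), 0 of 14 genes of the mitochondrial membranes and import (-0.12), 8 of 33 assembly factors (-0.20) and 4 of 13 regulators of mitochondrial gene expression (-0.12), and limma called 0 of them. Over all probe sets tested in WAT, 51.8% were higher. Summed citric acid cycle levels were 24971 and 24866 with UAG, against 38092 and 23313 on saline arrays 1 and 2. Those of the membrane and import genes were 29817 and 31621, against 36404 and 30416.5. Idh3a, of the citric acid cycle enzyme isocitrate dehydrogenase, was at 3152 and 3218 with UAG, against 6016 and 2650.1 with saline, with saline array 1 high as for the subunits. Ppargc1a, the coactivator of mitochondrial biogenesis, was at 32.8 and 50.2 with UAG, against 120.4 and 46.7 with saline. Liver had 12 of 12 citric acid cycle genes higher with UAG (median log2 difference 0.069) and 14 of 14 membrane and import genes (0.088). Their summed levels in liver were 22547.5 and 23930.5 with UAG, against 22111 and 20386 with saline, and 32746 and 36633.5, against 33498 and 30268. The membrane and import sums overlapped between the groups. In both lists liver UAG array 2 was highest and liver saline array 2 lowest. Assembly factors there were higher for 21 of 33 (0.028) and regulators for 5 of 12 (-0.041). For muscle the counts in this order were 4 of 12 (-0.090), 9 of 14 (0.038), 18 of 33 (0.025) and 7 of 13 (0.0037). Over all probe sets, 50.2% were higher in liver and 49.6% in muscle. limma called 0 of the listed genes there as well. The shares of all probe sets called, for reading the next counts, were 32.2% higher and 29.3% lower in muscle against liver, 22.1% and 27.8% in muscle against WAT, and 31.3% and 27.9% in WAT against liver. In muscle against liver, 8 of 12 citric acid cycle genes were called higher and 1 lower, 14 of 33 assembly factors higher and 5 lower, 8 of 14 membrane and import genes higher and 5 lower, and 5 of 13 regulators higher and 3 lower. In muscle against WAT the counts were 9 and 0, 18 and 1, 8 and 1, and 9 and 0 in the same order. In WAT against liver they were 6 and 2, 5 and 12, 4 and 6, and 1 and 8. Slc25a4, the muscle form of the ADP/ATP carrier, was at 13659 to 15535 in muscle, against 2851 to 3044 in WAT and 157 to 221 in liver, and Slc25a5, its general form, at 1992 to 2786 in muscle, 4213 to 5229.6 in WAT and 5889 to 8384 in liver.

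Probe sets of 1 gene did not always agree. For UAG in WAT, 9 of the 43 genes with several probe sets had them in opposite directions, in muscle 27 of 46 and in liver 20 of 45. Between tissues, Atp5a1, Cox5b and Ndufs8 had probe sets called both ways in muscle against liver, Ndufs8 in muscle against WAT, and Atp5j2 and Atp5o in WAT against liver. For Ndufs8 the deviating probe set was dim, at 77.5 and 121 with UAG and 78.6 and 110.1 with saline in muscle, against 157 and 196 with UAG and 199.9 and 196 with saline in liver. The values of these genes are therefore uncertain.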

How the data were processed

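RNA from WAT, muscle and liver of UAG-treated and saline-treated Ghsr-/- mice had been hybridised to Affymetrix Mouse Genome 430 2.0 arrays. The deposited log2 values were made by the authors with MAS5 (named without a version in the submitters' processing notes) and, by the methods, quantile normalization on present calls. Base 2 was inferred from the values: it puts the highest intensity at 25724, within a 16-bit scanner's range. The methods applied an intensity threshold of 30, which was used here as a floor, values below it being set to 30.

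Differences were tested with limma 3.58.1 in R 4.3.3 (intensity trend, mean intensity of at least 30, Benjamini-Hochberg over all probe sets, threshold 0.05), beside the methods' 2-fold ratio of means without a p. UAG was compared with saline within each tissue on 4 arrays, and tissues in a fit of 12 arrays. With 2 arrays per group, precision was limited by their number. Scripts were tested on simulated data. Members and lists were chosen with earlier results of these data known. Genes named were tissue isoforms, complex II, Cycs, and the extremes of each complex and comparison. Probe sets with several or no gene names were left out of the members. Alternatives covered normalization, floor, filter, probe set choice, replicate block and each array left out.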

Additional observations from a re-analysis of the deposited data

Results flagged for a closer look

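In each group of 4 arrays of 1 tissue, the highest or lowest array was compared with the other 3, and 11 of 75 such groups had an array set apart by more than Dixon's 95% limit. Chance gives about 1 in 20 for a single group. The groups were the listed isoform genes, the complex II genes, Cycs, and the mean deviations over all members and over each of complexes I to V. They share the same arrays and overlap in genes, so they are not independent and the 11 of 75 cannot be weighed against that share. In WAT, saline array 1 was set apart for Cox7a1 at 1083, Sdha at 5020, Sdhb at 5220, Sdhd at 2516 and Cox6b1 at 9681, and for the mean log2 deviation of complex III at 0.47. It was the high array in all 6. In muscle, Cox6b1 was high on UAG array 1 at 11910 and Cox8a on saline array 2 at 2714. In liver, UAG array 2 was high for Cycs at 8068 and for Atp5g3 at 9684, and saline array 1 for Ndufa4l2 at 112.7.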

How the results depend on the processing

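The median over all members in WAT and every complex median there ran across 0 when single arrays were left out: -0.42 to 0.056 for complex I, -0.65 to 0.11 for II, -0.64 to 0.045 for III, -0.28 to 0.12 for IV and -0.31 to 0.062 for V, lowest without saline array 2 and highest without saline array 1. The log2 differences ran likewise for Cox7a1 (-2.98 to 0.48), Sdhc (-0.11 to 0.15), Sdhd (-0.78 to 0.091) and Uqcrc1 (-0.88 to 0.064), and 0 to 3 probe sets passed the 2-fold rule, or 1 with geometric means. In muscle, every median also ran across 0 when single arrays were left out, that over all members from -0.036 to 0.095. The ranges were -0.041 to 0.12 for complex I, -0.078 to 0.043 for II, -0.033 to 0.080 for III, -0.017 to 0.11 for IV and -0.035 to 0.072 for V. For genes they were -0.14 to 0.023 for Atp5l, -0.16 to 0.57 for Atp5md, -0.0078 to 0.35 for Ndufs8, -0.24 to 0.071 for Ndufv1, -0.072 to 0.13 for Sdhc, -0.066 to 0.059 for Uqcr10 and -0.045 to 0.23 for Uqcrq. In liver, leaving out single arrays gave -0.0022 to 0.11 for the median over all members. By complex it gave -0.019 to 0.071 for I, -0.035 to 0.13 for II, 0.023 to 0.12 for III, 0.014 to 0.21 for IV and -0.058 to 0.085 for V. For genes it gave -0.025 to 0.42 for Cox7a2, -0.018 to 0.47 for Cycs, -0.98 to 0.0018 for Ndufa4l2, -0.060 to 0.27 for Sdhb and -0.093 to 0.060 for Uqcrc1, with 0 to 1 probe sets past 2-fold.

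Between tissues, leaving out single arrays gave, for muscle against liver, -0.12 to 0.29 for Cox6b2, -0.0044 to 0.23 for Cox8a, -0.026 to 0.11 for Sdhd and 0.81 to 0.96 for the complex V median, for muscle against WAT -0.091 to 0.20 for Atp5d, and for WAT against liver -0.072 to 0.019 for Atp5g2, -0.080 to 0.031 for Cox7a2l, -0.083 to 0.20 for Cycs, -0.19 to 0.046 for Ndufa4 and -0.22 to 0.074 for Sdha, with 31 to 79 probe sets called higher and 9 to 31 lower. On saline arrays alone, fewer arrays entered each comparison: 2 probe sets were lower in muscle than in liver, 41 were higher and 0 lower in muscle than in WAT, and 21 were higher and 5 lower in WAT than in liver, while log2 differences were -0.020 for Atp5d and -0.0018 for Ndufa1 (muscle against WAT) and 0.034 for Cox7a2, 0.11 for Cox7a2l and 0.089 for Sdha (WAT against liver). On UAG arrays alone, Cox6b2 was at -0.15 (muscle against liver) and Cycs at -0.36 (WAT against liver), the WAT against liver medians were 0.16 for complex IV and 0.032 for V, and 25 probe sets were lower in WAT. Quantile normalization over 12 arrays gave 0.073 for Atp5g3, 0.055 for Cox7a2 and 0.48 for complex IV (WAT against liver). The complex IV median of muscle against liver was 0.74 with a filter at 100, 0.52 with the mean of all probe sets and 0.69 with no floor. That of complex V in WAT against liver was 0.041 with the mean of all probe sets. There Cox4i2 was at 0.30 with no floor (limma adjusted p = 0.533). Its mean was below 30 in both of these tissues, so this is not read as a difference. The cause of these changes was not tested.

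Within a tissue, the replicate block joined UAG and saline arrays of the same number, and 0 member probe sets were called for UAG in any tissue. In the fit of 12 arrays, the block instead joined arrays of 1 treatment and number over tissues, with a consensus correlation of 0.0454. There 0 were called for any difference between tissues in the UAG effect. Between tissues, 122 were called higher and 4 lower in muscle against liver, 121 and 6 in muscle against WAT and 44 and 14 in WAT against liver. These blocks changed no other call of the results reported here. Deviations of same-numbered UAG and saline arrays correlated at -0.14 in WAT, at 0.11 in muscle and at -0.038 in liver, whereas those of same-numbered arrays of 1 treatment in different tissues did so at 0.0038 to 0.12. Whether arrays of different tissues came from the same mice is not known, and the tissue comparisons above treated the 12 arrays as independent, apart from the fit with the block. With crossed numbers in WAT, chosen after seeing the data, 0 of all probe sets were called, against 22 with the replicate block.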
